A study of Mus musculus with 2 samples.

Results

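The Rab genes encode small GTPases that direct vesicles between the membranes of the cell, and their levels were compared between 2 libraries of cells sorted from breast tumours. Members were taken by symbol, as every gene named Rab with a number and at most 1 letter, which gave 56 of 22558 genes in both deposited tables. One library was made from the sorted tumour-initiating fraction (TIC) and the other from the sorted non-tumorigenic cells (NTC). The mice that bore the tumours were of the FVB strain, which is inbred, and the cells were sorted by flow cytometry straight after dissociation with no treatment. The sources used here give neither the age nor the number of the mice, nor how the tumours arose, nor which surface markers were sorted on. Each group had 1 library, so there is no replicate error, no test and no p-value, and every difference is one between these 2 libraries.

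A Rab protein is active while it binds GTP and sits in a membrane, where it recruits effectors such as motors, tethers and coat adaptors. Exchange factors (GEFs) load it with GTP, GTPase-activating proteins (GAPs) switch it off, and a dissociation inhibitor (GDI) carries it through the cytosol by its prenyl tail. Most Rabs serve routes that every cell has, while some belong to epithelial or secretory cells. In the mammary gland, luminal cells sort proteins to an apical surface and release milk, and basal myoepithelial cells contract around them.

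The markers of these mammary layers separated the libraries completely. The 11 basal and myoepithelial markers were each at least 2-fold higher in TIC and summed to 5955 FPKM in TIC against 45.0 in NTC. The 11 luminal markers were all at least 2-fold lower in TIC, with sums of 291.8 FPKM in TIC against 4178 in NTC. Some of them kept sizeable levels in TIC. Epcam had 153.8 FPKM in TIC against 589.0 in NTC, Kit 89.2 against 282.6, and Gata3 27.2 against 114.1. The 9 milk genes summed to 60.8 FPKM in TIC against 5150 in NTC, with Lalba listed at 0 in TIC. FPKM is the number of sequenced fragments scaled to transcript length and library size, so levels may be compared between genes. Immune markers summed to 2.44 FPKM in TIC against 2.23 in NTC, and Ptprc, Cd3e, Cd8a, Emr1 and Ms4a1 were listed at 0 in both. Endothelial and stromal markers summed to 184.8 FPKM in TIC against 2.71 in NTC, of which Dcn gave 151.8 FPKM in TIC and 1.51 FPKM in NTC, while Lum and Kdr were listed at 0 in NTC. With only 2 libraries, a difference in a Rab gene and the difference in lineage cannot be told apart, nor can fewer cells of a kind and less RNA per cell. The part of stromal cells in any difference below was not tested. The low values of short receptor genes put 1 FPKM at roughly 21 fragments per kilobase of transcript in TIC and 21.6 in NTC. Both figures come from the same fixed window of values, which keeps them close, so they cannot show whether depth was alike. An exact 0 can be a failed estimate and is not read as absence.

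As a family the Rab genes were expressed at similar levels in both libraries. Of the 56 members, 45 (80.4%) had a mean of at least 1 FPKM and are called measured, against 53.2% of all genes. The median level of the measured members was 15.1 FPKM in TIC and 15.6 FPKM in NTC. Added over all 56, Rab transcripts made up 1177 FPKM in TIC and 1393 FPKM in NTC, which is 0.354% and 0.370% of each library's total. The difference of these sums was -215.3 FPKM, and Rab25 alone accounted for -119.8 FPKM of it. Without Rab25 the sums were 1166 FPKM in TIC and 1261 FPKM in NTC.

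Ratios of TIC to NTC were taken as log2 of FPKM + 1, so that differences of low genes come out too small, and a log2 ratio of at least 1 in size is called 2-fold. Of the 45 measured members, 6 (13.3%) were at least 2-fold higher in TIC, against 14.6% of the 12004 measured genes. Another 6 (13.3%) were at least 2-fold lower in TIC, against 13.8% of measured genes. The family thus held 2-fold differences at about the background share in each direction. The other 33 lay within 2-fold, and 25 of the 45 (55.6%) had a log2 ratio within 0.5 of 0, against 47.0% of measured genes. The median log2 ratio of the members was 0.14 and the quartiles were -0.32 and 0.42. Over all measured genes the median was -0.16 and the quartiles were -0.63 and 0.39. Centred on the median measured gene, which shifts every ratio up by that amount, the Rab median was 0.31. The members below 2-fold lower were Rab25, Rab3d, Rab4a, Rab17, Rab40b and Rab15, and those above 2-fold higher were Rab31, Rab38, Rab23, Rab27a, Rab8b and Rab12.

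**Figure D1:**
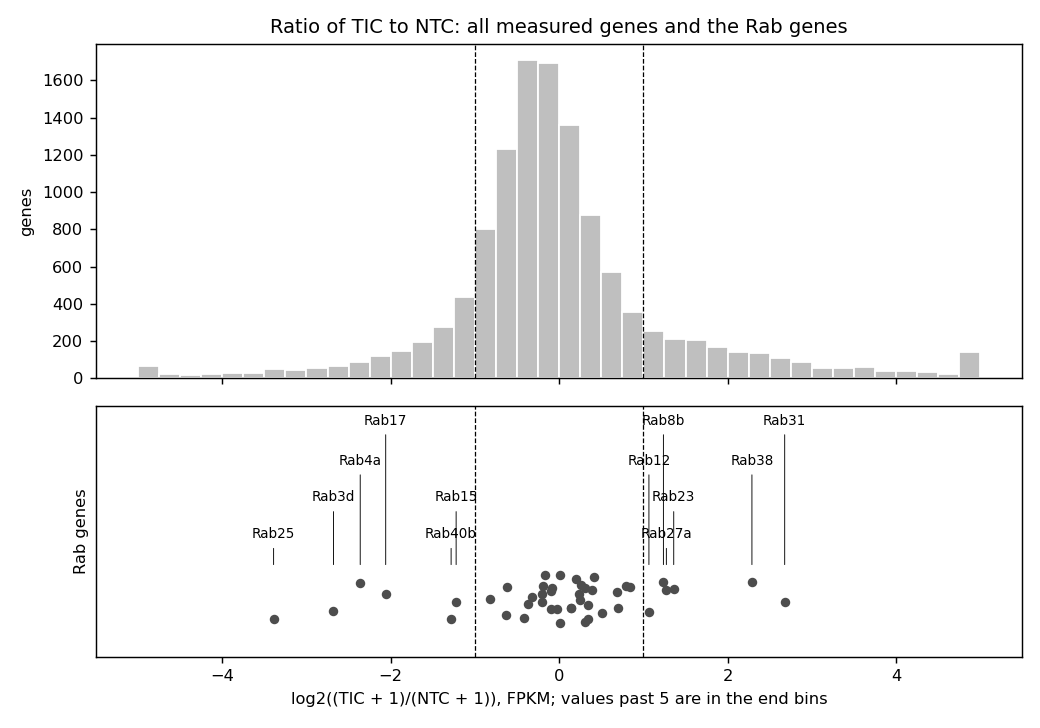
Upper panel: number of genes by log2((TIC + 1)/(NTC + 1)) in FPKM, for the 12004 measured genes, with values beyond 5 in size placed in the end bins; lower panel: the 45 measured Rab genes on the same axis (vertical scatter has no meaning), with dashed lines at 2-fold. Most Rab genes lie near 0, with 6 named genes past 2-fold on each side, from Rab25 at -3.39 to Rab31 at 2.68.

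The recycling endosome and apical route held 3 of the 6 members that were 2-fold lower in TIC, where 13.8% of measured genes were. The 8 members of this group, all measured, summed to 154.6 FPKM in TIC against 341.8 in NTC, which was 13.1% of all Rab FPKM in TIC and 24.5% in NTC. Rab25, an epithelial relative of Rab11 that returns integrins and other cargo to the surface (chromosome 3, 88345951 to 88352201, build mm9), had 11.6 FPKM in TIC against 131 in NTC. It was the second highest Rab gene in NTC and ranked 29 of 56 in TIC, and its log2 ratio was -3.39, or 11.3-fold lower by FPKM. Rab4a, which serves the fast return of receptors from early endosomes, had 12.9 FPKM in TIC against 70.2 in NTC (log2 ratio -2.36). Rab17, an epithelial Rab of apical recycling and transcytosis, had 1.18 FPKM in TIC against 8.11 in NTC (log2 ratio -2.06). These 3 were the only members of the group past 2-fold.

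The other recycling genes differed little. Rab11a, the general Rab of the recycling endosome, had 16.4 FPKM in TIC and 20.6 FPKM in NTC, and its close copy Rab11b had 35.4 FPKM in TIC and 29.9 FPKM in NTC. Rab14, which links the Golgi and endosomes, had 46.7 FPKM in TIC and 46.2 FPKM in NTC. Rab4b had 16.5 FPKM in TIC and 19.0 FPKM in NTC, and Rab35, which acts in fast recycling and cell division, had 14.0 FPKM in TIC and 16.3 FPKM in NTC. Among the members assigned to this route, the 2-fold lower levels in TIC thus lay with Rab25, Rab4a and Rab17 rather than across all of them. Rab15 and Rab12, which also act at recycling endosomes, were assigned to another group. Rab15 was 2-fold lower in TIC (log2 ratio -1.22) and Rab12 was 2-fold higher (log2 ratio 1.07).

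Exocytosis of secretory granules was served by members that differed in opposite directions. Rab3d, found on the granules of exocrine cells, had 1.84 FPKM in TIC against 17.2 in NTC (log2 ratio -2.68, chromosome 9, 21711955 to 21722565). Rab27a, which docks lysosome-related granules at the membrane, had 8.33 FPKM in TIC against 2.86 in NTC (log2 ratio 1.27). Rab27b, its paralogue, was at the same low level, with 1.45 FPKM in TIC and 1.44 FPKM in NTC. Rab3a, best known from synaptic vesicles, had 7.70 FPKM in TIC and 6.54 FPKM in NTC, but the tables give it 1 locus together with Mpv17l2, so its value may share reads with that gene. The remaining 5 members, Rab3b, Rab3c, Rab26, Rab37 and Rab44, stayed below 1 FPKM in both libraries.

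Rab38 and Rab32, a pair known for supplying lysosome-related organelles such as melanosomes, were both higher in TIC. Rab38 had 8.86 FPKM in TIC against 1.02 in NTC (log2 ratio 2.29, chromosome 7, 95578783 to 95640082). Rab32 had 2.46 FPKM in TIC against 0.997 in NTC, a 2.47-fold difference by FPKM that fell short of 2-fold on the log2(FPKM + 1) scale (0.79). The NTC levels rest on about 22.0 fragments per kilobase for Rab38 and 21.5 for Rab32. The melanosome genes Dct and Tyrp1 were listed at 0 in both libraries, and Tyr at 0 in TIC and 0.00733 FPKM in NTC. Of the melanocyte list only Sox10, which other cells express too, was measured, with 345.8 FPKM in TIC and 288.1 FPKM in NTC.

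Among the early endosome genes, Rab31 stood higher in TIC. Rab31, a relative of Rab22a that works between the Golgi and endosomes, had 30.5 FPKM in TIC against 3.93 in NTC (log2 ratio 2.68, chromosome 17, 66001066 to 66122092). Rab22a had 19.2 FPKM in TIC and 13.2 FPKM in NTC. The Rab5 genes, which organise fusion of early endosomes, lay close together, with Rab5c at 53.0 FPKM in TIC and 68.9 FPKM in NTC. No Rab5 copy differed by 2-fold. Rab5b had 42.6 FPKM in TIC and 34.2 FPKM in NTC, and Rab5a 14.2 FPKM in TIC and 10.9 FPKM in NTC. Rab21, which takes up integrins, had 20.5 FPKM in TIC and 21.8 FPKM in NTC. Rab20, linked to phagosomes, had 3.01 FPKM in TIC and 6.07 FPKM in NTC (log2 ratio -0.82). It was 2.02-fold lower in TIC by FPKM but fell short of 2-fold on the log2(FPKM + 1) scale. Only Rab31 of these 7 passed 2-fold on that scale, and Rab21 and Rab5a are described in the tables by several gene identifiers.

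Transport to the plasma membrane after the Golgi was assigned 8 members, of which 2 were 2-fold higher and 2 were 2-fold lower in TIC, against 14.6% and 13.8% of all measured genes. Rab8b, a partner of Rab8a in polarised export, had 17.3 FPKM in TIC against 6.77 in NTC (log2 ratio 1.24). Rab8a itself had 35.5 FPKM in TIC and 55.0 FPKM in NTC (log2 ratio -0.62). The 2 copies therefore differed in opposite directions, and their sum was 52.8 FPKM in TIC and 61.8 FPKM in NTC. Rab12, known for sending receptors from recycling endosomes to lysosomes, had 33.8 FPKM in TIC against 15.6 in NTC (log2 ratio 1.07).

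On the lower side of this group, Rab15, which also acts in recycling endosomes, had 13.5 FPKM in TIC against 32.9 in NTC (log2 ratio -1.22). Rab40b, a member with a SOCS box that joins ubiquitin ligases, had 0.247 FPKM in TIC against 2.03 in NTC (log2 ratio -1.28). That TIC level rests on about 5.18 fragments per kilobase and is the least certain of the 12. Rab10, needed for export in polarised and insulin-responsive cells, had 98.1 FPKM in TIC and 105 FPKM in NTC. Rab40c had 9.49 FPKM in TIC and 10.8 FPKM in NTC, at a locus shared with Gm10012. Rab13, a Rab of tight junctions, had 11.5 FPKM in TIC and 8.32 FPKM in NTC, although its description lists several gene identifiers. Rab10 thus ranked among the 4 highest Rab genes of both libraries.

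**Figure D2:**
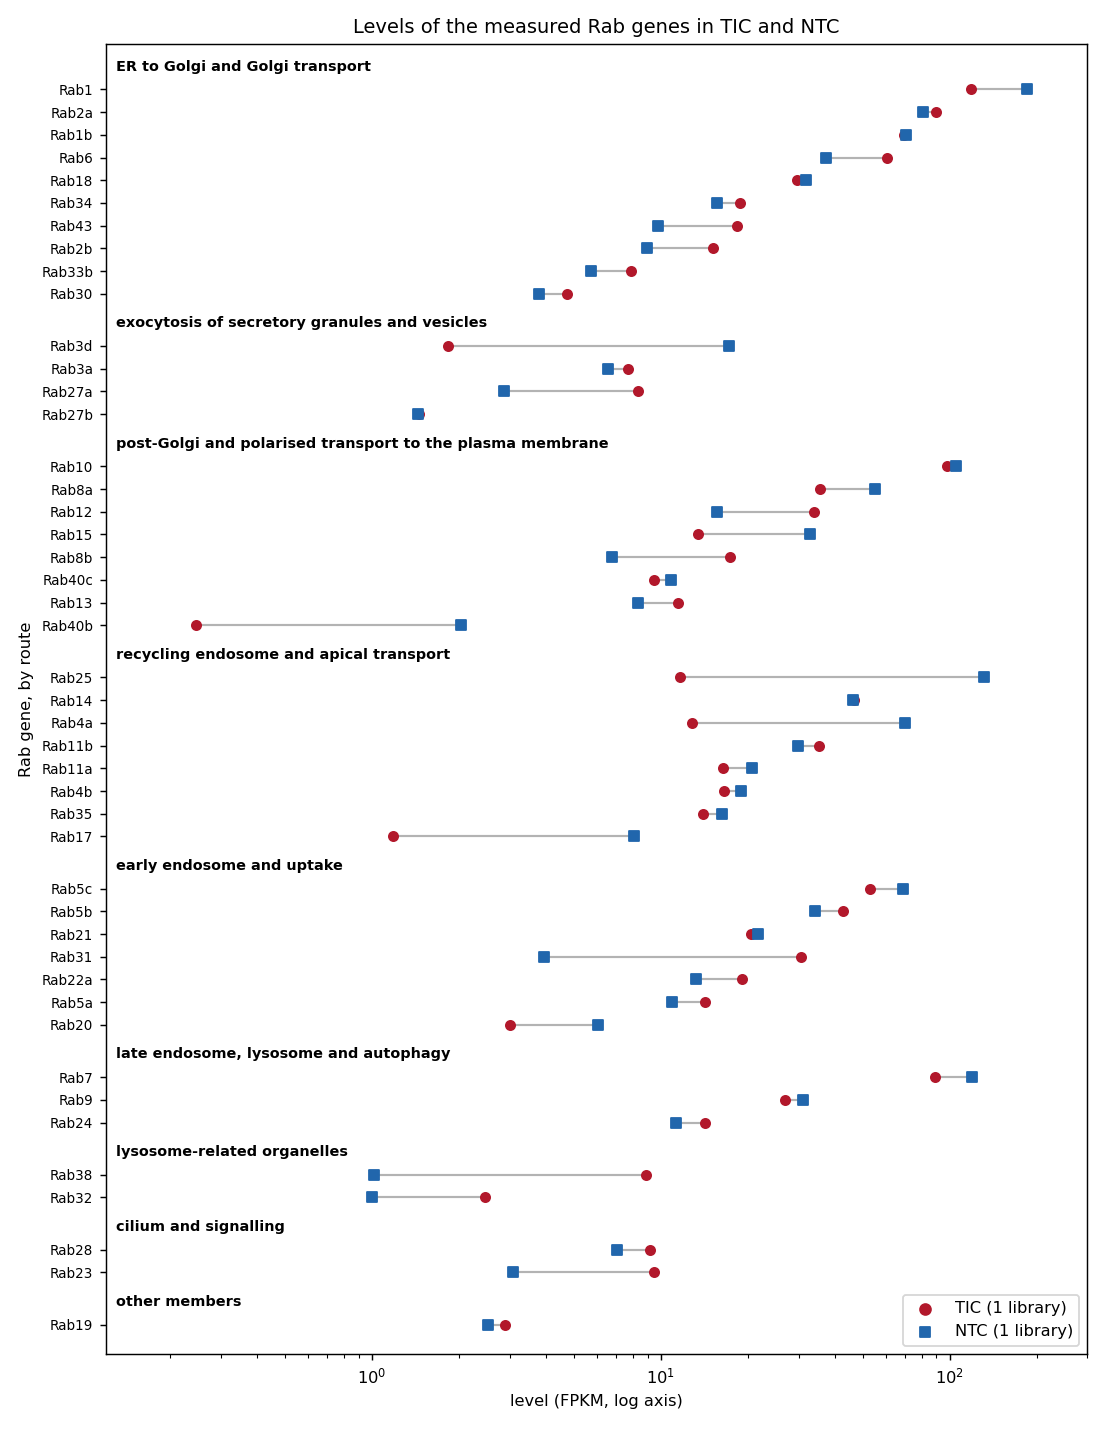
Level of each of the 45 measured Rab genes in FPKM on a log axis, grouped by route, with a circle for the TIC library, a square for the NTC library and a line joining them. The longest lines toward NTC are those of Rab25, Rab3d, Rab40b, Rab17 and Rab4a, and the longest toward TIC those of Rab38 and Rab31.

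The route from the endoplasmic reticulum (ER) through the Golgi carried the largest share of Rab transcripts in TIC, 36.9% against 32.3% in NTC. Its 13 members summed to 435.0 FPKM in TIC and 449.2 FPKM in NTC, and all 10 measured members lay within 2-fold. Rab1, which starts transport out of the ER, was the highest Rab gene of both libraries, with 118.6 FPKM in TIC and 184.9 FPKM in NTC (log2 ratio -0.64). Its copy Rab1b had 69.4 FPKM in TIC and 70.4 FPKM in NTC. Rab2a, of the ER to Golgi intermediate compartment, had 89.4 FPKM in TIC and 80.9 FPKM in NTC. These 3 genes, like Rab7 and Rab10 of other routes, were among the 6 highest Rab genes in each library.

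Some Golgi members leaned toward TIC without reaching 2-fold. Rab43 had 18.3 FPKM in TIC and 9.77 FPKM in NTC (log2 ratio 0.84), and it passed 2-fold once ratios were centred on the median gene (log2 ratio 1.01). Rab6, which moves vesicles within and away from the Golgi, had 60.9 FPKM in TIC and 37.3 FPKM in NTC, in a locus shared with Mrpl48. Rab2b had 15.1 FPKM in TIC and 8.93 FPKM in NTC, in a locus shared with Mettl3 and Tox4. These values may include reads of the genes that share the locus. Rab33b, of the Golgi and autophagy, had 7.85 FPKM in TIC and 5.74 FPKM in NTC. Rab30 had 4.74 FPKM in TIC and 3.79 FPKM in NTC, Rab34 had 18.8 FPKM in TIC and 15.6 FPKM in NTC, and Rab18, of lipid droplets and the ER, had 29.7 FPKM in TIC and 31.8 FPKM in NTC.

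Late endosomes and lysosomes showed no 2-fold difference among their measured Rabs. Rab7, which drives the fusion of late endosomes with lysosomes, had 89.2 FPKM in TIC and 120 FPKM in NTC (log2 ratio -0.42). Rab9, of the return from late endosomes to the Golgi, had 26.8 FPKM in TIC and 31.1 FPKM in NTC. Rab24, linked to autophagy, had 14.2 FPKM in TIC and 11.3 FPKM in NTC. Of the members tied to cilia and signalling, Rab23, a brake on Hedgehog signalling in mice, had 9.49 FPKM in TIC against 3.09 in NTC (log2 ratio 1.36). Rab28, the other member of that group, had 9.17 FPKM in TIC and 7.05 FPKM in NTC. Rab19, which was placed in no route, had 2.88 FPKM in TIC and 2.52 FPKM in NTC.

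The 11 members that were not measured were Rab3b, Rab3c, Rab6b, Rab9b, Rab26, Rab33a, Rab36, Rab37, Rab39, Rab39b and Rab44. Rab44 was listed at 0 in both libraries, and Rab3c, Rab6b, Rab9b, Rab33a and Rab36 were listed at 0 in NTC alone. Rab39b, a neuronal Rab, lay just under the limit for a measured gene with 1.93 FPKM in TIC and 0.0139 FPKM in NTC, and the NTC level corresponds to only about 0.30 fragments per kilobase. Rab6b, mainly neuronal, had 1.34 FPKM in TIC beside its listed 0 in NTC. Just above the limit were Rab40b and Rab27b. Rab39b and Rab6b would bring the count of 2-fold higher members to 8 if no limit were set, when 8.5% of all 22558 genes count as 2-fold higher.

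Within some subfamilies the main copy was not the same in both libraries. Of the summed FPKM of Rab11a, Rab11b and Rab25, Rab25 gave 18.4% in TIC and 72.2% in NTC, while Rab11b gave 55.8% in TIC and 16.5% in NTC. In the Rab4 pair, Rab4a gave 43.7% in TIC and 78.7% in NTC. In the Rab3 group, Rab3a gave 80.3% in TIC and 27.2% in NTC, and Rab3d gave 19.2% in TIC and 71.4% in NTC. The Rab3a value may include reads of Mpv17l2, which shares its locus, so the shares in this group are less certain. Of Rab22a and Rab31, Rab31 gave 61.4% in TIC and 22.9% in NTC. The main copy differed between the libraries in these 4 subfamilies.

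In the other subfamilies whose copies were all measured, the main copy was the same in both libraries. Of the Rab39 pair, neither member of which was measured, Rab39b gave 98.3% in TIC and 29.9% in NTC, on levels near 0 in NTC. Rab8a gave 67.2% of the Rab8 sum in TIC and 89.0% in NTC. Rab5c gave 48.2% of the Rab5 sum in TIC and 60.4% in NTC. Rab1 gave 63.1% of its pair in TIC and 72.4% in NTC, and Rab2a gave 85.6% in TIC and 90.1% in NTC. Rab27a gave 85.2% of the Rab27 sum in TIC and 66.5% in NTC. Such shares depend on how reads common to near-identical copies were assigned, which the sources do not say.

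**Figure D3:**
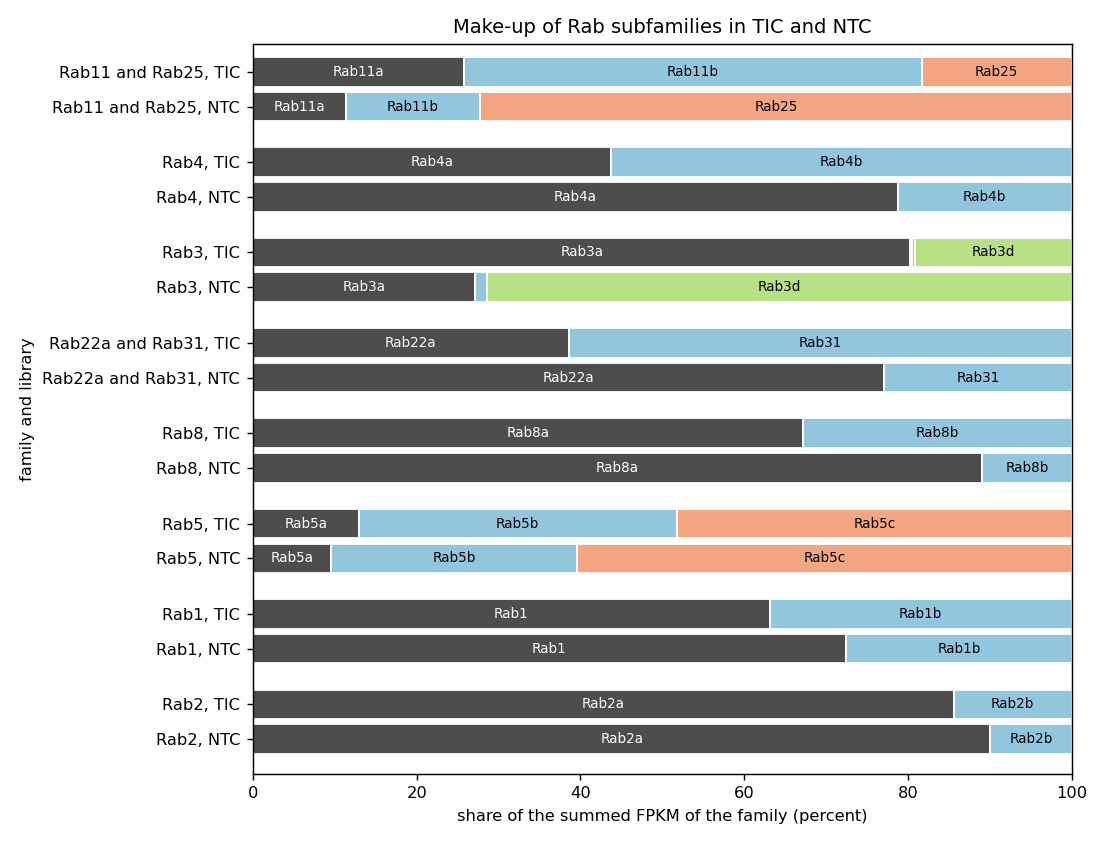
Share in percent of the summed FPKM of each subfamily that each Rab gene gives, with the TIC library above the NTC library in each pair of bars; segments too small for a name are unlabelled. Rab25, Rab4a and Rab3d are the largest segments of their subfamilies in NTC but not in TIC, and Rab31 is the larger segment of its pair in TIC but not in NTC.

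Promoter sequence was examined for what the members past 2-fold share. The RefSeq table of build GRCm38.p6 holds 56 promoters for 44 of the members, each of 300 bases from 250 before to 50 after a start site. The promoters of Rab25, Rab3d, Rab17 and Rab31 are shown because they belong to the 3 most strongly lower members in the table and the most strongly higher one. Each runs 5′ to 3′ on the strand of its gene, with capitals for every match, on either strand, to GGGCGG (the GC box of SP1), CACGTG and CAGGTG (E-boxes), GGAAGT (an ETS core), AACNGGTT (Grainyhead) and TGANTCA (AP-1), and matches may overlap. CAGGTG is the core bound by the Snail and Zeb repressors.
Rab25, chr3:88548230-88548529, minus strand: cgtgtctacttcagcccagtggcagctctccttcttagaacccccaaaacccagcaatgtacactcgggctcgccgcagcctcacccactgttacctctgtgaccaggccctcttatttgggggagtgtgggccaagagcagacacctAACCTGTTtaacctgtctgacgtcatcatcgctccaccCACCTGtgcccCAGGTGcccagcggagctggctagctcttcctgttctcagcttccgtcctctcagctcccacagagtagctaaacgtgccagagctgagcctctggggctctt
Rab3d, chr9:21918134-21918433, minus strand: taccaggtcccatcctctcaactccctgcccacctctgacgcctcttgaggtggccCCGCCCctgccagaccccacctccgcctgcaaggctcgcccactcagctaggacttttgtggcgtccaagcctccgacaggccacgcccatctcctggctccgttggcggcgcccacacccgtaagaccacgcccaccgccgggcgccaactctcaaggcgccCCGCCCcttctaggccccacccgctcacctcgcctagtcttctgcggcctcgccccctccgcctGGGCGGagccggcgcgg
Rab17, chr1:90967618-90967917, minus strand: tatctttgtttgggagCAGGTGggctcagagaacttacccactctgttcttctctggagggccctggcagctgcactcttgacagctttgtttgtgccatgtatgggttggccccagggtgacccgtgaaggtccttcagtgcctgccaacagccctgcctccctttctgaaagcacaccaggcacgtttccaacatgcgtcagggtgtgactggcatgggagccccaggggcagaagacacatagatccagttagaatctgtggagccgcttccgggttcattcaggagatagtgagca
Rab31, chr17:65772703-65773002, minus strand: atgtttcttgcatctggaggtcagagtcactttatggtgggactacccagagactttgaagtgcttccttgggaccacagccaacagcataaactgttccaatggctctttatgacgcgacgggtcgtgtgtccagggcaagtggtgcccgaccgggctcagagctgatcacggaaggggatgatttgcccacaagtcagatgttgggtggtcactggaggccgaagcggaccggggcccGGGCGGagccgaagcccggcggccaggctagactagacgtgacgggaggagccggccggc

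The Rab25 promoter, which holds no GC box, has a Grainyhead match and 2 CAGGTG or CACCTG matches, and the Rab17 promoter has 1 CAGGTG match and no GC box. The Rab3d promoter has 3 GC boxes and the Rab31 promoter has 1. Rab25 and Rab17 have 9 and 5 CpG dinucleotides in these windows, while Rab3d has 26 and Rab31 has 19, and the median Rab promoter has 19.5 against 7 for all 32851 promoters in the table. A GC box was found in 69.6% of Rab promoters and 35.7% of all promoters. The set of all promoters includes genes not expressed in these libraries, while 37 of the 44 members with a promoter were measured. Promoters of measured genes alone were not compared. Among members past 2-fold a GC box was found in 6 of 7 promoters of those higher in TIC and 4 of 8 of those lower, each set from 5 genes. Several of the 8 lower promoters are alternative starts of Rab15, some with and some without a GC box, so promoters do not stand for separate genes. By gene, each higher member with a promoter had a GC box, and of the lower ones only Rab25 and Rab17 had none. The Grainyhead letters were found in 1 Rab promoter, that of Rab25, and in 2.09% of all promoters. CAGGTG was found in 17.9% of Rab promoters and 20.2% of all promoters. Among members past 2-fold it was found in 3 of 8 promoters of those lower in TIC, at Rab25, Rab17 and 1 start of Rab15. It was also found in 2 of 7 promoters of those higher, at Rab23 and Rab27a. The ETS core was found in 25% of Rab promoters and 23.8% of all promoters, CACGTG in 10.7% and 7.15%, and AP-1 in 5.36% and 7.81%. A match describes letters in this window and is not a bound site.

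Members were also searched for Rab or partner genes within 1000 kb, and the pairs found did not all differ alike. The Rab17 locus lies 6.99 kb from that of Mlph, an effector of Rab27a that tethers melanosomes to a myosin. Mlph had 0.336 FPKM in TIC against 51.6 in NTC. Prlh lies nearer to Rab17, at 4.12 kb, and was listed at 0 in both libraries. Rab12 and Rab31, both higher in TIC, lie 721.8 kb apart on chromosome 17. Rab43 and Rab7 lie 188.7 kb apart on chromosome 6 and leaned in opposite directions. Rab1b (log2 ratio -0.02) lies 42.1 kb from Rin1 (1.77), and Rab19 (0.14) lies 72.0 kb from Dennd2a (2.10). Among the 24 nearest loci on either side of the 12 members past 2-fold, 16 were measured genes, of which 3 passed 2-fold in the direction of their Rab and 3 in the other direction, beside 14.6% higher and 13.8% lower over all measured genes.

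Most effectors of Rab11 and Rab25 were lower in TIC. All 9 were measured, 6 of them were 2-fold lower in TIC while none was 2-fold higher, with a median log2 ratio of -1.53 against -0.16 over all measured genes. The share of 2-fold lower genes among all measured genes was 13.8%. Myo5b, the myosin motor of the apical recycling endosome, had 0.161 FPKM in TIC against 10.8 in NTC (log2 ratio -3.35). Myo5c, a related motor of exocrine cells, had 0.0166 FPKM in TIC against 18 in NTC (log2 ratio -4.23). Rab11fip1, an adaptor that binds Rab11 and Rab25, had 2.41 FPKM in TIC against 29.5 in NTC (log2 ratio -3.16). Rab11fip5 had 12 FPKM in TIC against 36.4 in NTC, Rab11fip4 had 2.30 FPKM in TIC against 5.62 in NTC, and Exoc6, a subunit of the exocyst tether that binds Rab11, had 2.83 FPKM in TIC against 11.9 in NTC. Rab11fip3 leaned the other way, with 16.1 FPKM in TIC and 9.11 FPKM in NTC, and Rab11fip2 had 6.69 FPKM in TIC and 5.90 FPKM in NTC. The list was chosen with earlier results of these data known.

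Of the 12 measured effectors of Rab3 and Rab27, 3 were 2-fold lower in TIC and 3 were 2-fold higher (median log2 ratio -0.47), where the shares over all measured genes were 13.8% and 14.6%. Besides Mlph, Unc13b, which primes vesicles for release, had 0.343 FPKM in TIC against 20.9 in NTC, and Unc13d, a Rab27 effector of granule release, had 0.408 FPKM in TIC against 2.04 in NTC. Myo5a, the myosin that Mlph joins to Rab27a, had 13.4 FPKM in TIC against 3.02 in NTC (log2 ratio 1.84). Sytl4, a Rab27 effector of granules, had 5.29 FPKM in TIC against 2.11 in NTC, and Rims1, a Rab3 effector of synapses, had 2.80 FPKM in TIC against 0.0167 in NTC. Rab27a and Myo5a were thus higher in TIC and Mlph, their linker in pigment cells, was lower.

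Effectors of Rab8, Rab10, Rab13 and Rab35 included 4 of 13 that were 2-fold higher and 1 that was 2-fold lower in TIC (median 0.18), against 14.6% higher and 13.8% lower over all measured genes. These 4 include Lrrk1, which was placed on the list although it is a kinase that phosphorylates Rab7 and not an effector of the Rabs named. Lrrk1 had 8.99 FPKM in TIC against 1.03 in NTC, and the actin-oxidising Mical2 had 12.9 FPKM in TIC against 3.13 in NTC. Ehbp1, an adaptor to actin, had 5.24 FPKM in TIC against 22.8 in NTC. On the list of effectors of Rab4, Rab5 and Rab7, 2 of 20 genes were 2-fold higher and 2 lower (median -0.04). Rilpl1, a Rilp-like gene whose own binding to these Rabs was not checked, had 24.8 FPKM in TIC against 3.62 in NTC. Appl2, an early endosome adaptor, had 11.9 FPKM in TIC against 57.2 in NTC. The 12 measured effectors of Rab1, Rab2 and Rab6 all lay within 2-fold (median -0.08), as the Rabs themselves did. Of the 9 exocyst subunits only Exoc6 passed 2-fold (median -0.18).

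**Figure D4:**
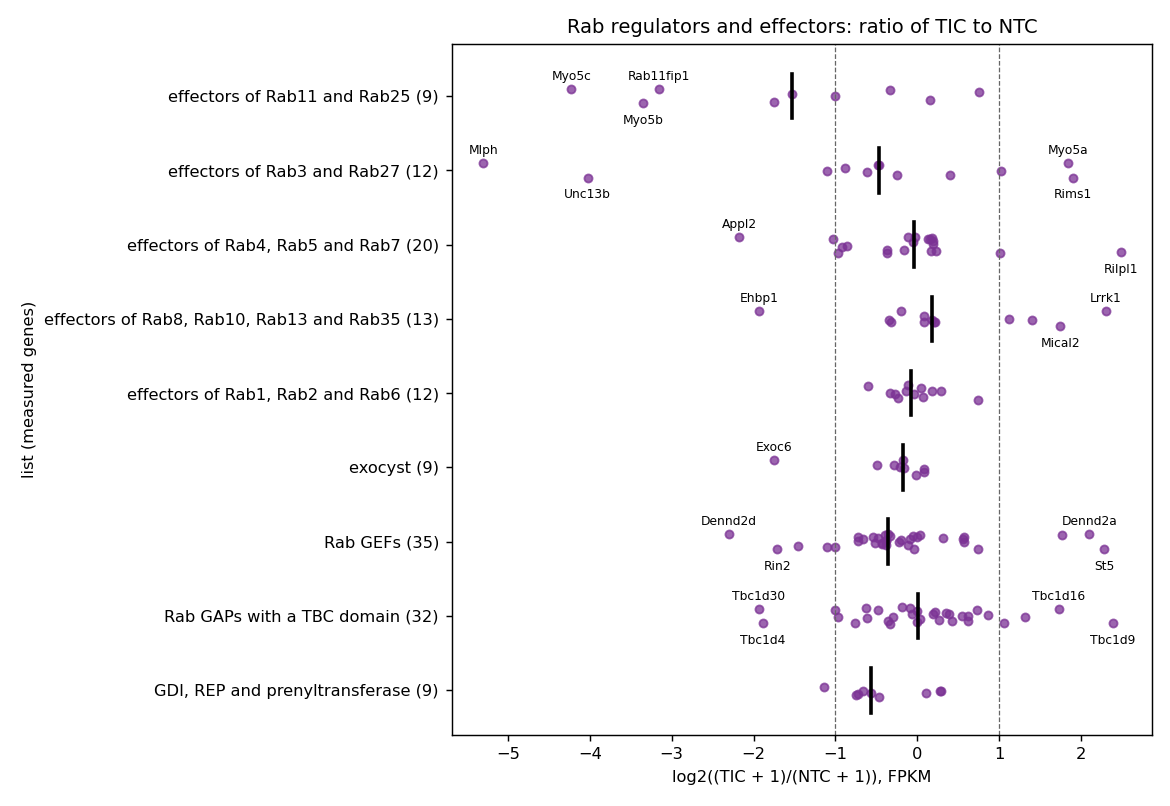
Log2((TIC + 1)/(NTC + 1)) in FPKM for each measured gene of 9 lists of Rab partners, with the number of measured genes in brackets, a black bar at the list's median and dashed lines at 2-fold (vertical scatter has no meaning). The effectors of Rab11 and Rab25 have the lowest median, -1.53, and those of Rab1, Rab2 and Rab6 all lie between the dashed lines.

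Regulators of Rab activity were set beside all measured genes, of which 14.6% were 2-fold higher and 13.8% were 2-fold lower in TIC. Of 35 measured GEFs, 5 were 2-fold lower and 3 were 2-fold higher in TIC. Their median log2 ratio was -0.36, against -0.16 over all measured genes. Rin2, which activates Rab5, had 29.2 FPKM in TIC against 98.1 in NTC, and Rab3ip, which activates Rab8, had 12.8 FPKM in TIC against 28.7 in NTC. Dennd2d had 2.97 FPKM in TIC against 18.6 in NTC, and Mon1a, part of the activator of Rab7, had 2.33 FPKM in TIC against 8.12 in NTC. St5, a DENN protein that activates Rab13, had 53.3 FPKM in TIC against 10.2 in NTC, with several gene identifiers in its description, and Dennd2a had 3.59 FPKM in TIC against 0.0703 in NTC. Rin1, another Rab5 activator, had 10.4 FPKM in TIC against 2.35 in NTC, so the Rin genes of the Rab5 route stood on opposite sides.

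Of 32 measured TBC-domain GAPs, 4 were 2-fold higher and 3 were 2-fold lower in TIC (median 0.01). The shares over all measured genes were 14.6% higher and 13.8% lower. Tbc1d9 had 12.6 FPKM in TIC against 1.59 in NTC, and Tbc1d16, which acts on Rab4a, had 4.75 FPKM in TIC against 0.736 in NTC. Evi5, a GAP tied to Rab11, had 13.7 FPKM in TIC against 6.07 in NTC, and Evi5l had 9.43 FPKM in TIC against 3.18 in NTC. Tbc1d4, the insulin-regulated GAP of Rab10, had 3.84 FPKM in TIC against 17.0 in NTC, and Tbc1d30 had 0.472 FPKM in TIC against 4.64 in NTC. The shared machinery of GDI, escort and prenylation held 1 gene of 9 past 2-fold, on the lower side (median -0.57, against -0.16 over all measured genes). This was Rabggta, a subunit of the enzyme that adds the prenyl tail, with 6.76 FPKM in TIC against 16.1 in NTC.

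Over the 149 measured genes of the 9 partner lists, 16 were 2-fold higher and 21 were 2-fold lower in TIC, with a median log2 ratio of -0.16, the same as that of all measured genes. The shares over all measured genes were 14.6% higher and 13.8% lower. Centred on the median gene, 17 partner genes were higher and 14 lower, and the shares over all measured genes were then 16.3% and 11.3%, so the balance of directions moved with the scaling for all genes alike. Outside the rule for members, Rasef, a large Rab-related GTPase, had 0.0554 FPKM in TIC against 10.1 in NTC, and it was the only 1 of 6 such genes past 2-fold (median -0.19). Rab7l1 had 5.13 FPKM in TIC and 10.1 FPKM in NTC.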

How the data were processed

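RNA was sequenced from 1 library of TIC and 1 of NTC. A small amount of RNA was amplified before library preparation, per the labels' protocols, and amplification can favour some transcripts over others. The authors deposited 1 FPKM value for each gene. TopHat 1.4.0, CASAVA 1.8.2, Cuffdiff, Cufflinks and build mm9 are listed without roles or settings, per the submitters' processing notes. The sources used here say nothing of strand use or of reads shared by copies.

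Members were found by symbol. A pseudocount of 1 FPKM was added to both values before the log2 ratio, and a gene counted as measured if its 2 values averaged 1 FPKM or more. The 9 partner lists, routes, subfamilies and motifs were written from general knowledge. Members and lists were chosen with earlier results of these data known. Every measured member is named, and partner genes are up to 4 with the largest ratio in each direction of a list, to which Rab11fip4 and Rab11fip5 were added after their values were seen. Locus starts were given 1 base more than in the tables, since the tables' starts plus 1 equalled the RefSeq start of GRCm38 for 198 genes and the starts as written for 12. The locus heading names a human build, but 99.7% of 20006 matched symbols lay on the mouse chromosome of that gene. A locus can span several genes, as for 9 members. Depth was estimated from Olfr and Vmn receptor genes whose locus is under 1.5 kb, from the median of FPKM × kb between 0.035 and 0.065, which was 0.0476 in TIC (23 genes) and 0.0463 in NTC (39 genes). This estimate is rough, is bounded by that window in both libraries, and covers counting only. Python 3.11.15 with pandas 2.3.3 and numpy 2.4.6 was used. Promoters are from RefSeq, GRCm38.p6. Members without an entry there are Rab1, Rab2a, Rab4a, Rab6, Rab18, Rab26, Rab27b, Rab30, Rab36, Rab37, Rab38 and Rab44.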

Additional observations from a re-analysis of the deposited data

How the results depend on the processing

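With a pseudocount of 5 FPKM, 2 Rab genes were 2-fold higher in TIC in place of 6 (Rab31 and Rab38), and 5 in place of 6 were lower, while 7 partner genes were higher in place of 16 and 12 lower in place of 21, which the larger pseudocount brings about for low genes by construction. The shares over all measured genes were then 9.05% higher and 7.67% lower, in place of 14.6% and 13.8%. Rab12, Rab23, Rab27a, Rab8b and Rab40b no longer passed 2-fold with the pseudocount of 5 FPKM. The median log2 ratio of the Rab genes was 0.27 after scaling both libraries to the same FPKM sum and 0.31 after centring on the median gene, against 0.14, and that of the partner genes was 0.0034 and -0.0015, against -0.16. Scaling also put the summed Rab FPKM of TIC at 0.956 of that in NTC, against 0.845. With a pseudocount of 0.1 FPKM, Rab32 joined the 2-fold higher genes (7), and with scaling or centring Rab43 did (7). The shares of all measured genes that were 2-fold higher were then 16% with that pseudocount, 16.1% with scaling and 16.3% with centring. A pseudocount added to both values cannot change the direction of a ratio. Scaling and centring shift ratios by less than the 2-fold limit, so no called Rab gene could change direction under these settings. None of the called Rab genes has a shared locus or an unclear description. Leaving out genes that do, as chosen after seeing the data, therefore had to keep 6 higher and 6 lower. Rab10, Rab18, Rab1b and Rab21, all close to 0, had a positive sign under scaling and centring. With no filter 8 members were 2-fold higher and 6 lower, beside 8.5% and 7.79% of all genes. Once the filter was raised to a mean of 5 FPKM, 5 were higher and 4 lower, beside 12.3% and 13% of the genes kept. No paired analysis was possible because each group has 1 library. Depth limits the levels below 1 FPKM most, and the spread between animals or sorts is not known.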
